A study of Mus musculus with 2 samples.

Results

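The cells described are lung regulatory T cells (Tregs) in which messenger RNA of Areg, the gene for amphiregulin, was captured. They were chosen from 1 lung library of sorted cells. Members had at least 200 genes, at most 10% mitochondrial unique molecular identifiers (UMIs, each a captured RNA molecule), at least 1 UMI over Cd3d, Cd3e and Cd3g, fewer than 3 UMIs over the cycle genes Mki67, Top2a, Birc5, Cdk1 and Ccna2, and at least 1 Areg UMI. Of 8730 lung barcodes, 8225 passed the filters other than Areg, and 480 of these held Areg, which is 5.84% (exact 95% Clopper-Pearson interval 5.34 to 6.36). Both libraries of the series held 15331 barcodes. Areg chose the cells, so its own level is no result and it was left out of every total. Areg lies at chr5:91139599-91148432 on the plus strand of GRCm38.

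The lung came from Foxp3-GFP mice on the C57Bl/6 background, of a strain that the labels name Tachilla. The back skin set beside it came from Foxp3-CreERT2GFP mice, also C57Bl/6. Both were adult, and no treatment is given for either. Collagenase, which loosens the collagen of a tissue, was used to free the cells. The sort took CD45+ CD3+ CD4+ GFP+ cells, where GFP reports the Treg factor Foxp3. There was 1 library a tissue and the number of animals in it is not given, so no test was possible. All intervals below cover counting error only.

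Tregs restrain immune responses, and in barrier tissues they also take part in tissue repair. Amphiregulin is a ligand of the epidermal growth factor receptor that tissue Tregs can release towards epithelial and stromal cells. It is known in lung Tregs from injury models, where the alarmins IL-18 and IL-33 can induce it without antigen, and T cell receptor signals can induce it too. Signals of the T cell receptor and of tumour necrosis factor (TNF) receptors lead in part to NF-kappaB, a family of transcription factors held inactive by inhibitors such as the product of Nfkbia.

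The comparison cells were lung cells passing the same filters with no Areg UMI, 3 for each member, matched on total UMIs. The 480 Areg-positive cells and the 1440 matched Areg-zero cells both had a median of 2762 UMIs, and held 1595078 and 4781143 UMIs in sum. Levels are given as CPM, the share of a gene in these sums scaled to a common total. A gene was called when it was 2-fold apart on log2(CPM + 5), among genes at or above 50 CPM in either group.

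The working name of these cells, Areg-positive repair-like Tregs, rests on Areg, Penk and Tnfrsf4. Treg genes were found in most cells of both groups: 428 of 480 Areg-positive cells (89.2%) and 1225 of 1440 Areg-zero cells (85.1%) held a UMI of Foxp3, Il2ra, Ikzf2 or Ctla4. Of these Ikzf2 was in 75.6% (71.5 to 79.4) and 62.6% (60.01 to 65.1). Tnfrsf4, the costimulatory receptor OX40, was found in 73.3% of Areg-positive and 56.3% of Areg-zero cells, and in 24.7% of lung cells without a Cd3 UMI. Penk, the precursor of enkephalin peptides, was nearly absent: 15 UMIs in 10 Areg-positive cells (2.08%) against 53 UMIs in 14 Areg-zero cells (0.972%), where 3 cells held 79.3% of them. In skin Areg-positive cells of the same depth Penk was found in 21.3%. Without cells rich in markers of other types (a set explained below), Penk had 15 UMIs in 10 Areg-positive cells against 16 UMIs in 14 Areg-zero cells, a ratio of 2.81 (1.29 to 6.07). Penk was thus seen in too few lung cells to mark them, which goes against the name, and the cells are called lung Areg-positive cells by their rule.

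Most members sat at the lower edge of the rule. A single Areg UMI was found in 304 of the 480 cells, 2 in 92 and 3 or more in 84, with a highest count of 15. On the other limits, 18 members had exactly 1 Cd3 UMI, and 8 Areg-positive cells were left out for having none. Another 5 members had 2 cycle UMIs, 8 Areg-positive cells were left out with 3 or more, and 1 was left out above the mitochondrial limit. Free RNA in droplets can also give a UMI. Among lung cells without a Cd3 UMI, 8 of 292 held Areg (2.74%, interval 1.19 to 5.33, median 1813 UMIs). After thinning every cell to 1000 UMIs, 2.81% (2.46 to 3.19) of 8153 Cd3-positive cells and 2.11% (0.688 to 4.85) of 237 cells without Cd3 held Areg. The share over all Cd3-positive cells was thus within the interval of the cells without Cd3. Those cells are no clean measure of free RNA, since Ikzf2 was found in 24.0% and Ccr7 in 25.3% of the 292. They may include Tregs whose Cd3 was not captured, and the part of free RNA was not tested. Shares that differ between kinds of lung Treg are given further on.

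A few cells of other types were in both groups. Over 59 defining markers of other cell types, 33 Areg-positive cells (6.88%) and 137 matched Areg-zero cells (9.51%) held 10 or more UMIs. By type, 10 or more UMIs of a marker list were held by 13 Areg-positive cells for B cells, 5 for CD8 T cells, 5 for alveolar or club epithelium, 4 for macrophages, 4 for dendritic cells, 3 for type 2 innate lymphoid cells, 2 for endothelium and 0 for fibroblasts. Mast cell, basophil and erythrocyte markers had 0 UMIs in all Areg-positive cells. Of the innate lymphoid cell genes, which Tregs share in part (Gata3, Il1rl1, Rora), Il13, Il5 and Arg1 had 0 UMIs; a count of 0 in 480 cells allows a share of cells with a UMI of up to 0.625%, at 3 counts. A second deposited lung matrix held the same cells at lower depth, with 427 of the 480 members Areg-positive there as well. The lung and skin libraries shared 82 barcodes, 4 of them among the members.

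Over all cells, 14 of 2394 genes were called higher in Areg-positive cells (0.585% of genes) and 13 lower (0.543%), with a median log2 ratio over all genes of 0.03. Several of these rested on very few cells. Lyz1, a lysozyme gene of epithelium and macrophages, had 67.1 CPM against 2.30 CPM, and 3 cells held 94.4% of its UMIs. The same 3-cell share was 97.7% for Tppp3 and 91.7% for Cbr2, both genes of airway cells, and 66.7% for Cdkn1c, a cell cycle inhibitor. On the other side Scgb1a1, the club cell secretoglobin, had 135 CPM against 1051 CPM, with 86.5% of the Areg-zero UMIs in 3 cells. Ccl21a, a chemokine of lymphatic endothelium, had 99.0% in 3 Areg-zero cells. Mgp, Inmt, Gsn, Sparc, Gpx3, Igfbp7, Bgn, Cyr61, Mfap4, Cldn5 and Ramp2, genes of stromal or endothelial cells, made up the rest of the lower genes.

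Cells of other types were therefore left out. The planned limit was 2 other-type UMIs, which 303 of the 480 Areg-positive cells reached. Without such cells 20 of 2295 genes were called higher and 5 lower. Of the 14 higher genes only Bhlhe40, Cd83, Itgav, Klrg1 and Odc1 were called again. Nfkbia, Rel, Zc3h12a, Csrnp1 and Ifrd1 were not. The comparison was then repeated without the cells that held 10 or more other-type UMIs, leaving 447 Areg-positive and 1341 matched Areg-zero cells. This limit was set after these values were seen. Here 17 of 2329 genes were called higher (0.73%) and 0 lower (0%), with a median log2 ratio of 0.05. Of the 14 genes called higher over all cells, 10 were called again, and of the 13 called lower, none was. At a 1.5-fold limit 73 genes were higher (3.13%) and 5 lower (0.215%). At this limit the genes past 1.5-fold were thus nearly all on the higher side. Some of them, Klrg1 and Itgav included, reached 50 CPM in Areg-positive cells alone, which favours a higher ratio. How many of the 73 did so is not given here, so the counts of the 2 sides are a description only. All values that follow are from these 447 and 1341 cells unless another set is named.

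**Figure D1:**
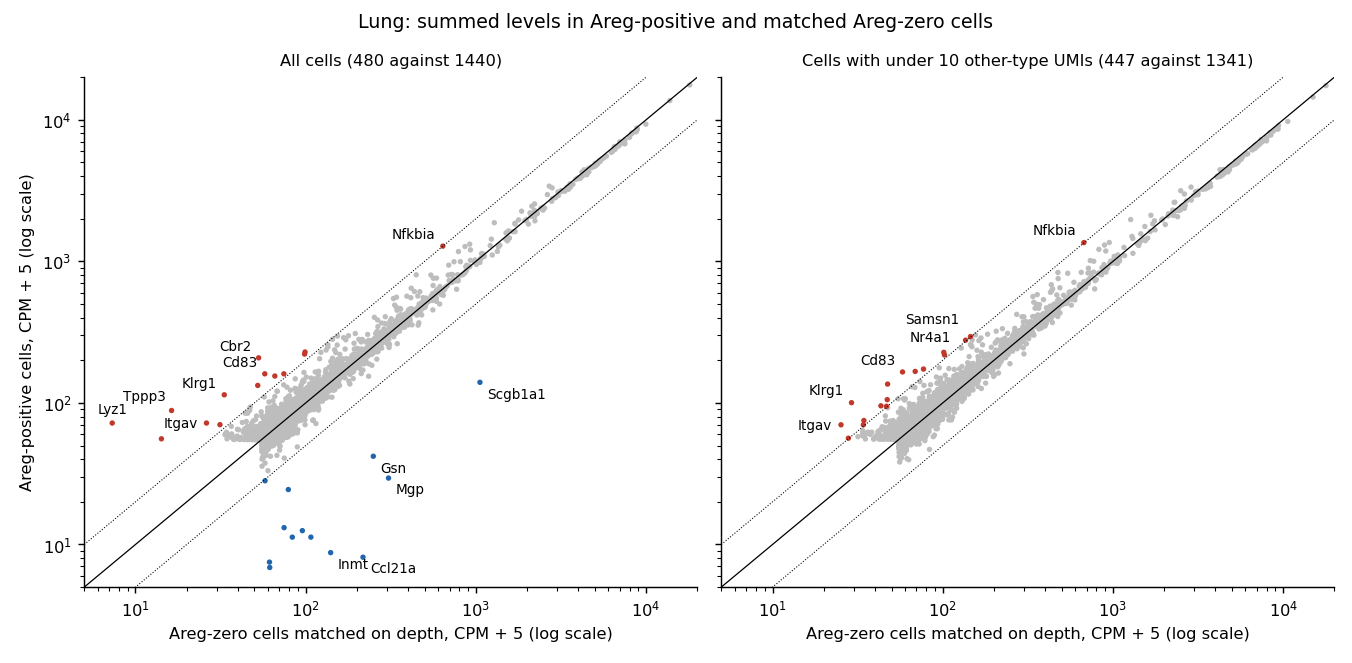
Each point is a gene at or above 50 CPM in either group; axes give CPM + 5 of the summed UMIs on log scales, dotted lines mark 2-fold, red and blue mark genes called higher and lower in Areg-positive cells. With all cells (left) airway and stromal genes such as Lyz1, Scgb1a1 and Ccl21a lie far out; without cells of 10 or more other-type UMIs (right) 17 genes are past the upper line and 0 past the lower.

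The genes with the widest differences were an inhibitory receptor of effector lymphocytes, a surface activation marker, an integrin and a set of activation-induced regulators. Klrg1, a receptor carried by terminally differentiated effector Tregs, had 132 UMIs in 48 Areg-positive cells (95.4 CPM) and 100 UMIs in 35 Areg-zero cells (24.1 CPM), a 3.96-fold difference (3.03 to 5.18). Itgav, the integrin alpha v chain whose dimers can activate latent TGF-beta, had 65.0 CPM against 20.3 CPM, 3.21-fold (2.36 to 4.38). Bhlhe40, a transcription factor induced by T cell activation, had 130.8 CPM in 98 cells against 42.4 CPM in 120 cells, 3.08-fold (2.49 to 3.82). Cd83, a surface protein of activated lymphocytes and dendritic cells, had 160.5 CPM in 101 cells against 53.0 CPM in 129 cells, 3.03-fold (2.5 to 3.66). In each of these 4 genes the interval of the ratio was above 2-fold, but they were picked as the widest. Klrg1, Itgav and Bhlhe40 reached 50 CPM in Areg-positive cells alone, which favours a higher ratio. Cd83 reached it in both groups. Klrg1 lies at chr6:122270596-122282882 (minus strand) and Cd83 at chr13:43784775-43803132 (plus strand).

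The other 13 called genes were 2.02- to 2.53-fold higher. They held immediate regulators of signalling: Rel, an NF-kappaB subunit (162 against 63.9 CPM), Nfkbia (1352 against 669 CPM), Nr4a1, an immediate target of the T cell receptor (272.5 against 131 CPM), and Zc3h12a, which encodes the RNase Regnase-1 (70.1 against 29.4 CPM). Csrnp1, Ifrd1 and the AP-1 family member Fosl2 are early response genes as well, at 2.34-, 2.19- and 2.15-fold. Bcl2a1b, of the anti-apoptotic A1 family whose near-identical copies can share reads, was 2.36-fold higher and its value is uncertain for that reason. Zc3h12a and Bcl2a1b (38.3 CPM in Areg-zero cells) also reached 50 CPM in Areg-positive cells alone. Odc1, the first enzyme of polyamine synthesis, was 2.31-fold higher, the lipid droplet gene Hilpda 2.38-fold, the adenosine receptor gene Adora2a 2.23-fold, the signalling adaptor Traf4 2.24-fold and Samsn1 2.06-fold. Traf4 too reached 50 CPM in Areg-positive cells alone. The levels of Fosl2, Hilpda and Adora2a are not given here.

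Of 18 genes of the NF-kappaB list, 15 reached 50 CPM, and all 15 were above 0, with 3 past 2-fold and 11 past 1.5-fold. However, 6 of the 15 reached the floor in Areg-positive cells alone, which favours a higher ratio. Of the 9 that reached it in both groups all 9 were above 0, 3 past 2-fold and 7 past 1.5-fold. The median of the 15 log2 ratio was 0.69 beside 0.05 over all genes. Beyond Rel, Nfkbia and Cd83, the kinase pathway brake Tnfaip3 (A20) had 577.5 against 354 CPM, 1.63-fold (1.49 to 1.78). The ubiquitin ligase Birc3 was 2-fold higher (1.65 to 2.41) as a plain ratio and just under the call on the scale with 5 CPM added. The nuclear inhibitor family member Nfkbid was 2.06-fold higher, Relb 1.68-fold and Nfkbiz 1.62-fold. The list thus held both subunits and the inhibitors that NF-kappaB itself induces.

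Promoter sequences of 3 of these genes are shown because they carry matches to the kappaB consensus, the site to which NF-kappaB dimers bind. They are the 250 bases before the gene start, from RefSeq on GRCm38.p6, 5′ to 3′ on the gene's strand, with matches to kappaB in capitals, and in Tnfaip3 also an AP-1 match (TGANTCA). The windows are chr12:55492648-55492897 for Nfkbia, chr11:23770970-23771219 for Rel and chr10:19015411-19015660 for Tnfaip3, all on the minus strand.
Nfkbia: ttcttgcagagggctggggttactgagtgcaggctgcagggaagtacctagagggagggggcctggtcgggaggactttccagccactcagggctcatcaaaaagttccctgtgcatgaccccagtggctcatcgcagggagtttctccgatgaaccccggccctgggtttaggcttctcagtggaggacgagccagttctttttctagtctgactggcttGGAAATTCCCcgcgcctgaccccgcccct
Rel: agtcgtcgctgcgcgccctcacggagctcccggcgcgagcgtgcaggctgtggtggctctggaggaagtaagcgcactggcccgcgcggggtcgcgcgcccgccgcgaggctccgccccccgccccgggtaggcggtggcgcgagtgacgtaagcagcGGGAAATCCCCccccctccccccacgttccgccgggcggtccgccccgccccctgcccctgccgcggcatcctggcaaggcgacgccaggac
Tnfaip3: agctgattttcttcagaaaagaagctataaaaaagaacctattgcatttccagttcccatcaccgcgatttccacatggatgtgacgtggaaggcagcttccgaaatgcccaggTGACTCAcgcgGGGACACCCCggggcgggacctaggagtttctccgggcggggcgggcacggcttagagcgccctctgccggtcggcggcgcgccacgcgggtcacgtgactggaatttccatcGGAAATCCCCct
The Nfkbia match starts 29 bases before the gene start. Rel holds 2 overlapping matches, starting 92 and 91 bases before. Tnfaip3 holds kappaB matches from 125 and 12 bases before the start and the AP-1 match from 136 bases before, while its other RefSeq start has none. Both strands were searched. The windows of Birc3 and of the adhesion gene Icam1, also on the NF-kappaB list, held no kappaB match. Of the 17 called genes 13 have a RefSeq window; 4 of the 13 hold a kappaB match (Fosl2, Hilpda, Nfkbia, Rel), 3 an AP-1 match (Bcl2a1b, Csrnp1, Hilpda) and 0 a cyclic AMP response element (TGACGTCA). Over all genes with a window, 8.23% hold a kappaB match, 7.82% an AP-1 match and 1.77% a cyclic AMP response element. A match is only a run of letters and no binding was measured here.

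Most genes that follow T cell receptor signals were higher as well. Of 23 listed, 13 reached 50 CPM, all 13 were above 0, 4 passed 2-fold and 9 passed 1.5-fold, with a median log2 ratio of 0.81. The 11 that reached the floor in both groups were all above 0, 3 past 2-fold and 7 past 1.5-fold. Over all 480 and 1440 cells 14 were measured and 12 were above 0. There the listed gene Egr1 was lower past 1.5-fold, at a log2 ratio of -0.63. This list shares Rel, Cd83, Nfkbid and Tnfaip3 with the NF-kappaB list. Among its other members, Batf, a partner of AP-1 needed for tissue Tregs, was 1.85-fold higher (1.49 to 2.29), and Tnfrsf9, which encodes 4-1BB, 1.47-fold. Cd69, an early activation antigen that also keeps cells in tissue, was level at 160.5 against 158 CPM, and Dusp2 was 1.1-fold.

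Handling can raise early response genes, and these were a mixed group here. Of the 20 measured genes of the dissociation list 12 were above 0, 2 were past 2-fold (Nfkbia and Nr4a1) and the median log2 ratio was 0.20. Summed, the genes of the list had 10276 CPM in Areg-positive and 7981 CPM in Areg-zero cells, with Nfkbia and Nr4a1 part of the sum. Fos was at 0.986-fold (0.904 to 1.07) and Jun at 0.925-fold, Junb at 1.56-fold, and the heat shock genes Hspa1a and Hspa1b at 0.735- and 0.625-fold. Over the other settings tried, the log2 ratio of Hspa1b ranged from -1.04 to 0.34. The median share of a cell's UMIs in early response genes was 0.947% in Areg-positive and 0.772% in Areg-zero cells, and that in ribosomal protein genes 37.97% and 41.2%. The part of handling in the NF-kappaB and receptor values was not tested.

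Receptors of the TNF family and their adaptors were modestly higher. Of 17 listed 9 were measured, 8 of them above 0 and 4 past 1.5-fold, with none past 2-fold and a median log2 ratio of 0.52. Tnfrsf4 had 829 against 470 CPM, 1.76-fold (1.64 to 1.9). Tnfrsf1b, the TNF receptor 2 gene, was 1.82-fold higher, the adaptor Traf1 1.57-fold and Tnfrsf18, which encodes GITR, 1.51-fold.

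Genes of tissue and effector Tregs were higher in part. Of 27 listed 16 were measured, 15 of them above 0, 7 past 1.5-fold and 1, Klrg1, past 2-fold. The median log2 ratio was 0.54. Of the 14 that reached the floor in both groups, a set without Klrg1, 13 were above 0, 6 past 1.5-fold and none past 2-fold. Rora, a nuclear receptor of tissue lymphocytes, was 1.94-fold higher (1.59 to 2.36), and Ccr2, a chemokine receptor of effector cells, 1.9-fold. Gata3, the type 2 factor that also sustains tissue Tregs, had 244 against 143 CPM, 1.7-fold (1.49 to 1.95). Itgb1, an integrin beta chain, was 1.76-fold higher, and S100a6 1.59-fold. Of the 13 genes of the type 2 list only Gata3, Rora and Maf reached 50 CPM, Maf at 1.08-fold (0.858 to 1.35).

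Il1rl1 encodes ST2, the receptor of IL-33, and stayed below 50 CPM, so that it could not be called. It had 39 UMIs in 26 Areg-positive cells against 23 UMIs in 17 Areg-zero cells, 28.2 and 5.54 CPM, a ratio of 5.08 (2.96 to 8.92). Il18r1, a chain of the IL-18 receptor, had 14.5 and 13.3 CPM, a ratio of 1.09 (0.619 to 1.85). Il10, which encodes a suppressive cytokine, had 29 UMIs in 13 Areg-positive cells against 28 UMIs in 14 Areg-zero cells. These sums held 1383556 and 4148275 UMIs, so on equal totals Il10 was higher in Areg-positive cells. Over all 480 and 1440 cells Il10 was found in 3.33% (1.92 to 5.36) and 1.25% (0.742 to 1.97), with intervals that overlap. Cxcr6, a receptor of tissue-resident T cells, had 33 UMIs in 12 cells against 5 UMIs in 2 cells, and over all cells 3 cells held 66.7% of the Areg-positive UMIs. The ST2 value was therefore spread over cells and the Cxcr6 value was not.

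Core Treg genes differed less. Of 15 measured, 12 were above 0, 4 were past 1.5-fold and the median log2 ratio was 0.25. The Helios gene Ikzf2 had 818 against 537 CPM, 1.52-fold (1.42 to 1.64), and Lrrc32, which encodes the TGF-beta carrier GARP, was 1.52-fold higher. Ctla4, an inhibitory receptor, was 1.36-fold higher (1.23 to 1.51). Il2ra was at 1.1-fold (0.923 to 1.31), and Foxp3, captured at 14.5 and 13.5 CPM, at 1.07-fold (0.609 to 1.81), with intervals that hold 1.

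Genes of central, recirculating Tregs were not lower as a group past 1.5-fold. Of 15 measured, 4 were above 0 and none passed 1.5-fold in either direction, with a median log2 ratio of -0.15. Ccr7, the lymph node homing receptor, was 1.29-fold higher (1.2 to 1.38) at 831 against 646 CPM. S1pr1, the egress receptor, was at 0.991-fold (0.878 to 1.12). Tcf7 and Foxo1, factors of quiescent T cells, were at 0.767- and 0.766-fold, and Ly6c1 at 0.758-fold, with intervals below 1.

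Other programmes had few members past 1.5-fold. Of the growth factor and repair list, only Tgfb1 (1.26-fold) and Lgals1 (1.25-fold) reached 50 CPM of 24 genes, and none of the 12 genes for other ligands, receptors or proteases of the epidermal growth factor system did. Among these Hbegf had 4 UMIs in all 480 cells and Ereg 0. The median log2 ratio was 0.32 for 4 suppressive molecules, 0.11 for 7 chemokine and egress receptors, -0.02 for 9 interferon-stimulated genes, 0.01 for 8 glycolysis genes and -0.02 for 15 genes of oxidative phosphorylation. It was 0.27 for 3 alarmin receptor genes, 0.18 for 4 type 1 genes and 0.25 for 2 type 17 genes. Of 14 integrin and adhesion genes 8 were above 0, 3 past 1.5-fold and 1, Itgav, past 2-fold, with a median of 0.11. The 10 of them that reached the floor in both groups held 5 above 0 and 1 past 1.5-fold.

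Shares of cells gave the same order after every cell was thinned to 1000 UMIs. Over all 480 and 1440 cells, Klrg1 was found in 6.04% (4.08 to 8.56) of Areg-positive and 2.08% (1.41 to 2.96) of Areg-zero cells, and in 11.7% and 3.06% before thinning. Cd83 was found in 11.7% (8.93 to 14.9) and 3.96% (3.01 to 5.1), from 23.1% and 10% unthinned. For Nfkbia the thinned shares were 60.6% (56.1 to 65.0) and 41.9% (39.3 to 44.5), from 81.9% and 68.3% unthinned. For Il1rl1 the thinned shares were 1.88% (0.861 to 3.53) and 0.694% (0.334 to 1.27), which overlap, and both overlap the 0.422% (0.0107 to 2.33) of cells without Cd3. No cell was left out of either group by thinning, and 55 of the 292 cells without Cd3 were. Klrg1 and Cd83 were in 1.03% and 3.08% of those 292 cells, at a median of 1813 UMIs. These shares lay below those in Areg-positive cells, which were deeper.

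Cells with more Areg UMIs had wider differences. Each group was set beside its own depth-matched Areg-zero cells, with 280 cells at 1 Areg UMI, 87 at 2 and 80 at 3 or more. Cd83 was 1.73-fold (1.31 to 2.26) above its Areg-zero cells at 1 UMI, 4.46-fold (2.89 to 6.96) at 2 and 10.9-fold (6.73 to 18.4) at 3 or more. Bhlhe40 was 1.39-fold (0.987 to 1.95), 3.6-fold and 6.79-fold (4.58 to 10.2) above. Nfkbia stood at 998, 1629 and 2147 CPM, which is 1.48-fold (1.36 to 1.61), 2.28-fold and 3.34-fold (2.97 to 3.77). For these 3 genes the interval at 3 or more UMIs lay above that at 1 UMI.

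The same order held for Tnfrsf4, at 1.42-, 2.03- and 2.85-fold, for Zc3h12a at 1.74-, 2.46- and 5.81-fold, and for Gata3 at 1.35-, 1.91- and 3.08-fold. The Areg-zero level was 502, 443 and 388 CPM for Tnfrsf4 and 29.6, 34.1 and 19.3 CPM for Zc3h12a. Klrg1 was 2.94-fold (1.98 to 4.38) at 1 UMI, 6.75-fold (3.31 to 14.6) at 2 and 4.87-fold (3.08 to 7.82) at 3 or more, with intervals that overlap. Il1rl1 was at 4.75-, 6.75- and 4.71-fold and Itgav at 3-, 3.86- and 4.35-fold, again with overlapping intervals. Ccr7 was at 1.13-, 1.45- and 1.68-fold. Penk had 10, 4 and 1 UMIs in the 3 groups, too few to order.

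**Figure D2:**
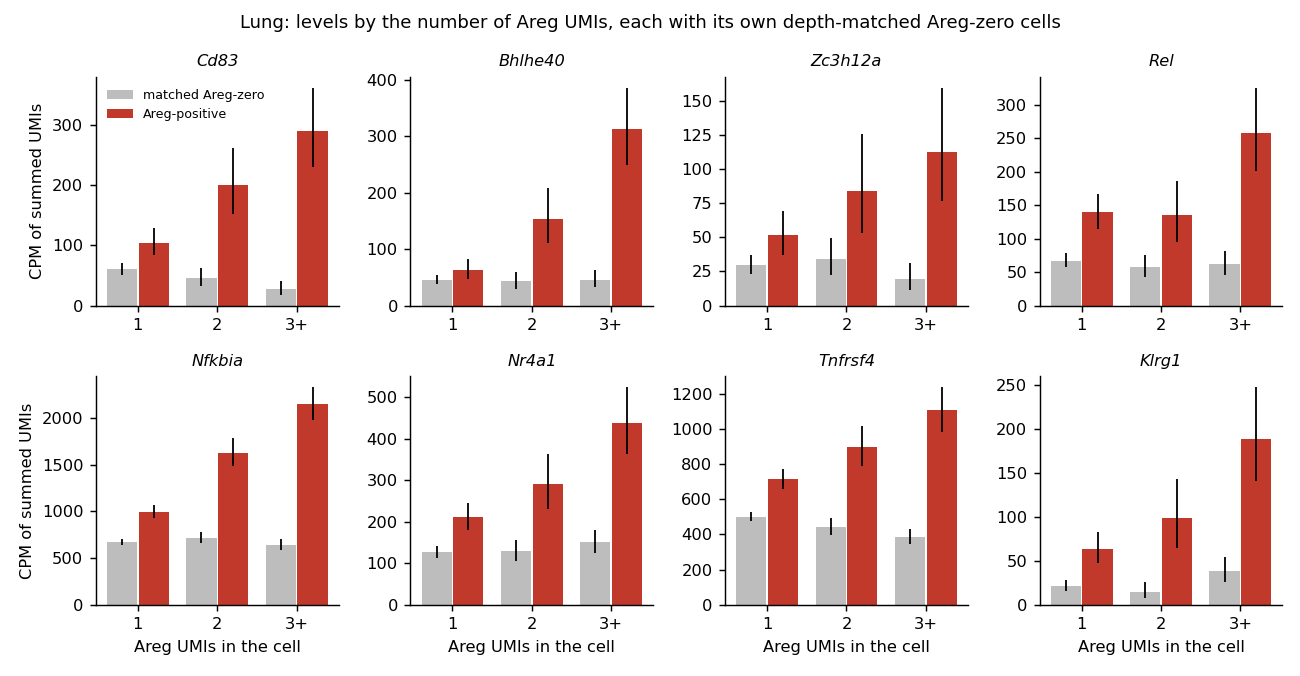
Bars give CPM of summed UMIs in lung Areg-positive cells with 1, 2 or at least 3 Areg UMIs (red) and in their own depth-matched Areg-zero cells (grey); lines are exact 95% Poisson intervals, and the panels have separate linear scales from 0. Cd83 stands 1.73-fold above its Areg-zero cells at 1 UMI and 10.9-fold at 3 or more, while its grey bars fall from 60.4 to 26.6 CPM.

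Areg-positive cells were not spread evenly over the lung Tregs. Clustering the 8225 cells without Areg gave 8 clusters, which are called by number and leading genes. Cluster 0, led by S100a4, S100a6 and Ccr2, held 155 of its 1567 cells with Areg (9.89%, 8.46 to 11.5), and cluster 2, led by Slc16a3, Rgcc and Tubb2a, 118 of 1154 (10.2%, 8.54 to 12.1). Together with the 89 Areg-positive cells of cluster 3, led by Rflnb, these held most of the 480. Cluster 4, led by the heat shock gene Hspa1a and by Dapl1, held 55 of 2223 (2.47%). After thinning, the shares were 4.51% in cluster 0, 5.38% in cluster 2, 2.1% in cluster 3 and 1.13% in cluster 4. The intervals of clusters 0 and 2 did not overlap with those of clusters 3 and 4. In cluster 0, 267 of the 1567 cells held 10 or more other-type UMIs, against 4 in cluster 2, 3 in cluster 3 and 5 in cluster 4. Such cells count in these shares. Without them 132 Areg-positive cells of cluster 0 were left. Cluster 6, led by Scgb1a1 and Sftpc of lung epithelium, held 8 of 52 cells with Areg (15.4%), with a wide interval.

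**Figure D3:**
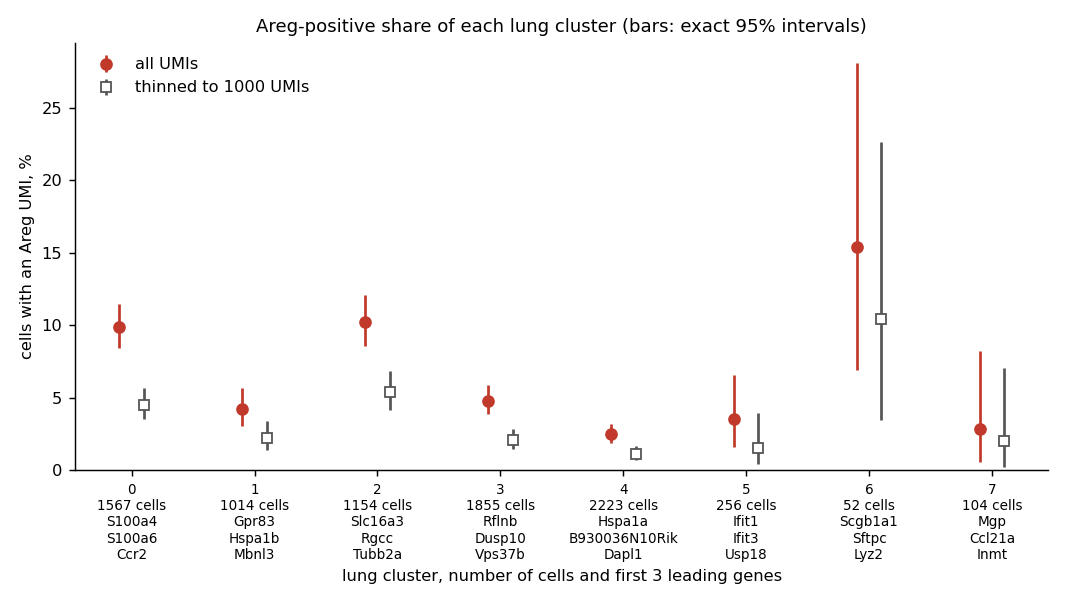
The vertical axis gives the percent of cells with at least 1 Areg UMI in each of 8 lung clusters, numbered on the horizontal axis with their cell number and first 3 leading genes; filled circles use all UMIs, open squares every cell thinned to 1000 UMIs, and lines are exact 95% intervals. Clusters 0 and 2 stand at 9.89% and 10.2%, cluster 4 at 2.47%, and cluster 6, with 52 cells, has the widest interval.

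The Areg-positive cells of clusters 0 and 2 differed in their receptors, while most of the activation genes named here were found at overlapping shares. The clusters were built on these genes among others, so the values are a description, and the median depth was 3509.5 UMIs in cluster 0 and 2573.5 in cluster 2. Klrg1 was found in 34.1% of the 132 Areg-positive cells of cluster 0 and in 0 of 118 of cluster 2, which allows up to 2.54% of cells with a UMI, at 3 counts. Ccr2 was found in 37.1% and 0.847%, Rora in 51.5% and 12.7%, Itgav in 34.8% and 11% and Il1rl1 in 16.7% and 2.54%. Il10 was in 9.09% and 0.847%. The homing receptor Ccr7 went the other way, in 34.8% against 93.2%, as did the surface protein gene Ly6c1 (12.9% against 42.4%). Cells with effector receptors and cells with a lymphoid homing receptor were thus both among the members.

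Cd83 was found in 32.6% of Areg-positive cells in cluster 0 and 34.7% in cluster 2, Rel in 34.1% and 45.8%, Bhlhe40 in 40.2% and 30.5%, Nfkbia in 92.4% and 83.9% and Tnfrsf4 in 82.6% and 85.6%. The intervals of each of these 5 pairs overlap. By level, Tnfrsf4 was lower in cluster 0, at 946 CPM (864 to 1035) against 1211 CPM (1096 to 1334). Odc1 was in 52.3% (43.4 to 61.0) of cluster 0 and 29.7% (21.6 to 38.8) of cluster 2, so that not every activation gene was alike in both. In the 89 Areg-positive cells of cluster 3 Cd83 was found in 4.49%, Bhlhe40 in 5.62%, Klrg1 in 1.12% and Rel in 21.3%, but Nfkbia in 69.7% and Tnfrsf4 in 71.9%.

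**Figure D4:**
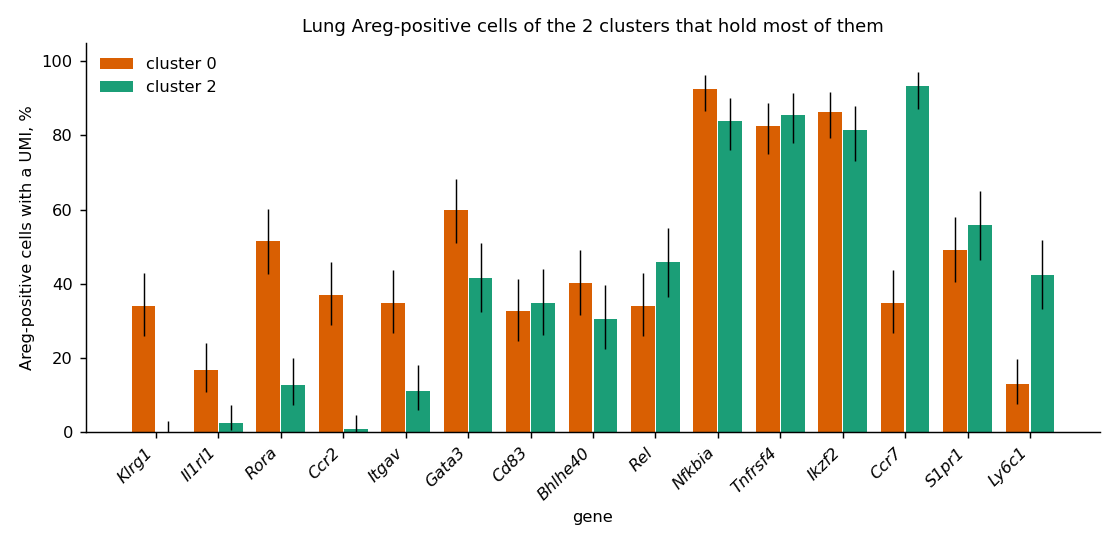
Bars give the percent of lung Areg-positive cells with at least 1 UMI of each gene on the horizontal axis, in cluster 0 (132 cells, orange) and cluster 2 (118 cells, green), with exact 95% intervals as lines. Klrg1, Il1rl1, Rora, Ccr2 and Itgav stand higher in cluster 0, Ccr7 and Ly6c1 in cluster 2, and Cd83, Nfkbia and Tnfrsf4 are close in both.

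Within a cluster, Areg-positive and depth-matched Areg-zero cells of that cluster were compared for the summed genes of a list. NF-kappaB genes were 2.09-fold higher (1.98 to 2.2) in cluster 0, 1.73-fold (1.62 to 1.84) in cluster 2, 1.38-fold in cluster 3 and 1.2-fold (1.05 to 1.38) in cluster 1, but 1.03-fold (0.872 to 1.21) in cluster 4. Cd83 was 2.96-fold higher (2.25 to 3.89) in cluster 0 and 2.78-fold (2.05 to 3.76) in cluster 2, and 3.5-fold (1.5 to 8.28) in the 42 Areg-positive cells of cluster 1. Bhlhe40 was 2.77- and 3.69-fold higher in clusters 0 and 2. Klrg1 was 3.63-fold higher (2.79 to 4.74) within cluster 0, at 252 against 69.3 CPM. Tnfrsf4 was 2.15-fold higher in cluster 0 and 1.22-fold (1.08 to 1.37) in cluster 2. The summed central Treg genes lay between 0.926-fold and 0.984-fold in these 5 clusters. The summed dissociation genes were 1.42-fold higher (1.37 to 1.46) in cluster 0 and 1.22-fold in clusters 2 and 3. They were at 1.08-fold (1.01 to 1.15) in cluster 4 and 0.989-fold (0.926 to 1.06) in cluster 1. The difference of the NF-kappaB sum was not detectable at this depth in cluster 4, where 54 Areg-positive cells were left.

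These within-cluster values depend on how finely the cells were divided. At resolution 1.2, which splits the lung cells into 15 clusters, Klrg1 was 1.35-fold higher (1.06 to 1.73) within the finer cluster led by S100a8, S100a9, Ccl5 and Klrg1, at 366 against 270.3 CPM, and 4.71-fold (1.67 to 14.3) within the one led by S100a4 and Maf, on 11 and 7 UMIs. Cd83 was 2.16-fold higher (1.6 to 2.93) in the first of these. That cluster was matched with 158 Areg-zero cells for 79 Areg-positive cells. In the cluster led by Cd83, Dgat2 and Rel, Cd83 was at 1.27-fold (0.977 to 1.65) and the NF-kappaB sum at 1.19-fold (1.12 to 1.28). Depth was not well matched there, with medians of 2979 UMIs in Areg-positive and 2617 in Areg-zero cells. In the finer cluster led by Rgcc, Tubb2a and Slc16a3, Cd83 and the NF-kappaB sum were at 1.36-fold (0.371 to 4.25) and 1.18-fold (1.04 to 1.33). The NF-kappaB sum was 1.59-fold higher (1.49 to 1.7) in the finer cluster with Klrg1, 1.83-fold (1.65 to 2.02) in the one with S100a4 and Maf, and 1.08-fold (0.916 to 1.26) in the one led by Gpr83 and Eno3.

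In skin Areg was the rule and not the exception, with 4360 of 6296 cells positive (69.3%, 68.1 to 70.4). The same contrast was made there with 1 matched Areg-zero cell for each, in 1936 cells a group. Over all cells 0 of 2931 genes were called higher (0%) and 19 lower (0.648%). Without cells of 10 or more other-type UMIs, 1 of 2904 genes was called higher (0.0344%), the chemokine gene Cxcl2, and 7 lower (0.241%). At 1.5-fold 7 genes were higher (0.241%) and 13 lower (0.448%). The chemokine gene Cxcl10, at 2.18-fold, was under the call on the scale with 5 CPM added.

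Fewer genes were past 1.5-fold in skin than in lung, and most of the lung genes lay on the same side. Of 2113 genes measured in both tissues, 70 were past 1.5-fold higher in lung and 3 in skin. Those 3 (Klrg1, Ramp3 and Rrad) were among the 70, which is 4.29% of the lung list and 100% of the skin list. Of the 70 lung genes 65 were above 0 in skin, with a median log2 ratio there of 0.25, beside 52.8% of all genes and a median of 0.01. Klrg1 had 257 against 168 CPM in skin, 1.53-fold (1.39 to 1.69), where lung had 3.96-fold. Nfkbia was 1.42-fold (1.38 to 1.46), Il1rl1 1.48-fold, Gata3 1.3-fold and Tnfrsf4 1.19-fold. Cd83 was 1.14-fold (1.07 to 1.22), and Bhlhe40 0.9-fold (0.811 to 0.998), against 3.03- and 3.08-fold in lung. Penk was lower in skin Areg-positive cells, 0.655-fold (0.586 to 0.733). Areg-zero cells may include cells whose Areg was not captured, and more so in skin, where most cells held it. The share of skin cells with Areg fell from 69.3% to 51.6% after thinning. In lung the share fell from 5.84% to 2.81%. The part of missed Areg in the smaller skin ratios was not tested.

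The lower side of the skin contrast had genes that were not called lower in lung, with Ccr7 and Bcl2 of the central Treg list among them. Ccr7 was at 0.416-fold (0.364 to 0.475) in skin and 1.29-fold in lung. Izumo1r, the folate receptor 4 gene of Tregs, was at 0.416-fold in skin and 0.969-fold (0.897 to 1.05) in lung. Bcl2, Tbc1d4 and Cd9 were at 0.408-, 0.313- and 0.396-fold in skin. For Ccr7 and Izumo1r the lung and skin intervals did not overlap. A difference between tissues could not be tested with 1 library each.

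**Figure D5:**
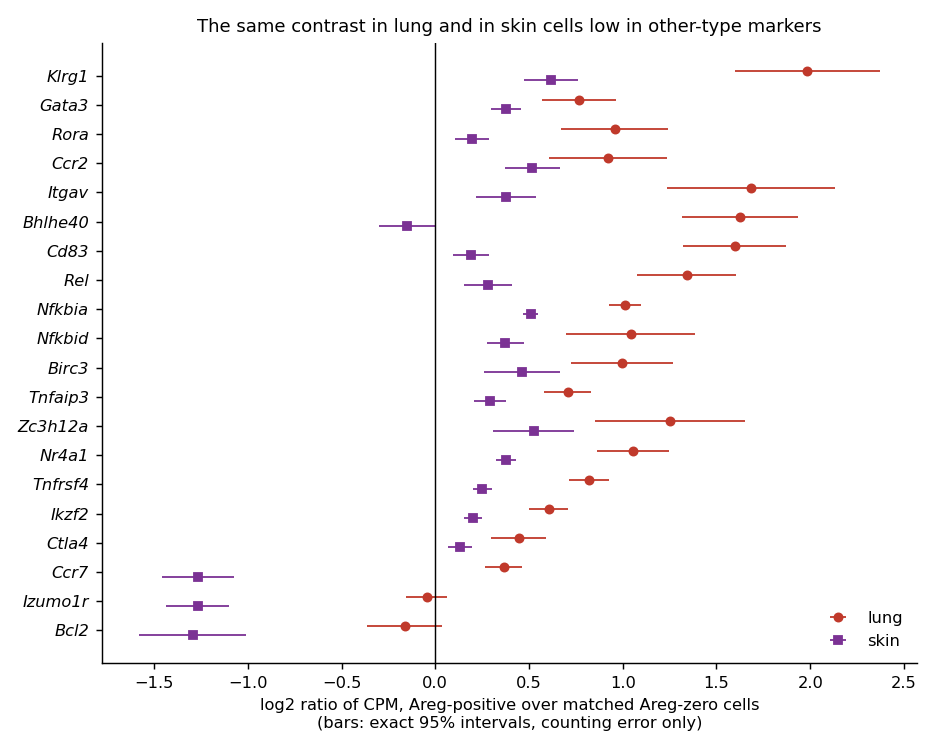
Points give the log2 ratio of CPM in Areg-positive over depth-matched Areg-zero cells for 20 genes on the vertical axis, in lung (red circles, 447 against 1341 cells) and in skin (purple squares), with exact 95% counting intervals. The lung points of Klrg1, Itgav, Bhlhe40 and Cd83 lie furthest right, at 3.96-, 3.21-, 3.08- and 3.03-fold, and Ccr7, Izumo1r and Bcl2 lie left of 0 in skin.

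Set directly beside skin Areg-positive cells of the same depth, lung Areg-positive cells had more of some central Treg genes. They had less of most tissue-resident and effector genes. Over all cells 51 of 3052 genes were called 4-fold higher in lung (1.67%) and 138 lower (4.52%), with a median log2 ratio of -0.36. The higher side made up 27.0% of these calls, and 40.7% when sums were scaled by the median of ratios. Without cells of 10 or more other-type UMIs, 50 of 3001 genes were higher (1.67%) and 125 lower (4.17%), with a median of -0.38, and the values that follow are from these cells. Strain, library, annotation and sex-linked genes differ together with the tissue: Xist had 0 UMIs in lung and 1131 CPM in skin over all cells, and the Y-linked Ddx3y and Eif2s3y had 0 UMIs in skin. These cannot be told apart from a tissue difference.

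Of 15 measured central Treg genes, 8 reached 50 CPM in lung alone, so that they had to be higher there. Of the 7 that reached it in both tissues, 4 were above 0 and 2 were called higher in lung. Ccr7, which reached it in both, had 836 against 106 CPM. Satb1, a chromatin organiser of resting T cells, had 398 against 25.4 CPM and S1pr1 265 against 21.6 CPM. Satb1 and S1pr1 are among the 8 that reached 50 CPM in lung alone. Klf2, which drives S1pr1, was 4.4-fold higher (4.15 to 4.66).

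The genes of tissue residence and effector function were lower. Of 24 measured tissue and effector Treg genes, 8 reached 50 CPM in skin alone, Cxcr6 and Itgae among them, so that they had to be lower in lung. Of the 16 that reached it in both tissues, 1 was above 0 and 7 were called lower in lung. The resident T cell receptor Cxcr6 had 24.0 against 712 CPM and the epithelium-binding integrin gene Itgae 10.9 against 348 CPM. Il10 had 21.1 against 330.1 CPM, Gzmb, a cytotoxic protease, 11.6 against 229 CPM and Penk 10.9 against 168 CPM. Il13 had 0 UMIs in lung and 206 CPM in skin. Il10, Gzmb, Penk and Il13 also reached 50 CPM in skin alone, so that they had to be lower in lung.

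The activation genes that set lung Areg-positive cells apart from other lung cells were still under the skin level in several cases. Cd83 had 161 against 436 CPM, 0.37-fold (0.321 to 0.426), Klrg1 was at 0.385-fold (0.318 to 0.462), Nfkbia at 0.498-fold and Tnfrsf4 at 0.495-fold. Nr4a1 was at 0.179-fold. Tnfaip3 was at 1.14-fold (1.05 to 1.24) and Bhlhe40 at 0.731-fold (0.618 to 0.861), both within 1.5-fold of skin, and Bhlhe40 close to the median over all genes. The median share of a cell's UMIs in early response genes was 2.33% in the skin and 0.947% in the lung cells, and that in ribosomal protein genes 18.7% and 37.97%. Their part in these ratios was not tested.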

How the data were processed

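Sorted Tregs of 1 lung and 1 skin sample were profiled, per the labels, with the 10x Single Cell 3' v2 kit. The deposited files hold raw UMI counts per gene and barcode, with cells already called by the authors. Cell Ranger and mm10 are named in the submitters' processing notes, and version 3.0.2 is given for the lung tables, per the file headers. The lung library held 24293511 UMIs over 31053 genes and the skin library 16190303 over 27998. The 27514 shared identifiers were used between tissues, 1027 of them under unlike symbols. Positions are from GENCODE M21.

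Counts were summed over cells matched on depth and compared on log2(CPM + 5), which understates differences of low genes. For lung and skin Areg-positive cells, 3 skin cells were matched to each lung cell and the call was 4-fold. With 1 library a group no p-value was computed. Levels carry exact Poisson intervals at 95%, ratios exact binomial ones and shares Clopper-Pearson intervals. Scrublet marked 0.0116% of lung and 0.0155% of skin cells as doublets, so it did not work. The top 6% of doublet scores held 34 Areg-positive (7.08%) and 125 matched Areg-zero lung cells (8.68%). These cells were kept, and removed as an alternative. Clusters used scanpy 1.11.5 and leidenalg 0.10.2 on 2000 variable genes, 30 components and 15 neighbours at resolution 0.8, without Areg. Scripts were tested on simulated data.

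Members and gene lists were chosen with earlier results of these data known. Named genes are the 20 highest and 15 lowest in the lung contrast, the 12 at each end against skin, up to 6 per list and the sort gate genes, leaving out receptor segments, ribosomal, mitochondrial and unnamed genes. Others printed were chosen after their values were seen. The genes of the rule are no results. The alternatives were other depth treatment, thresholds, scalings, filters on cells and the second lung matrix.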

Additional observations from a re-analysis of the deposited data

How the results depend on the processing

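No paired analysis was possible because each tissue has 1 library. The lung counts of genes called, 14 higher and 13 lower, moved most with the thresholds. Higher genes numbered 37 with a floor of 20 CPM, 9 with a floor of 100 CPM, 71 at 1.5-fold and 67 when Areg-positive meant at least 2 Areg UMIs. Lower genes numbered 39 and 6 at those floors, 22 at 1.5-fold, 21 with at least 2 Areg UMIs, 8 without depth matching, 5 after thinning, 23 with totals without mitochondrial and ribosomal genes and 3 with at least 3 Cd3 UMIs. They numbered 5 without cells of 2 or more other-type UMIs and 0 without cells of 10 or more. Between lung and skin, 31 genes were higher and 79 lower with 20 CPM added, 83 and 234 with a floor of 20 CPM, 32 and 88 with a floor of 100 CPM, 187 and 468 at 2-fold, and 93 were higher with totals without mitochondrial and ribosomal genes. The highest Areg-positive share of a cluster was 25.5% at resolution 1.2.

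Among the 27 genes called over all lung cells, directions reversed for genes of airway, stromal and endothelial cells and Cdkn1c. Of named genes not called, Hspa1b ranged from -1.04 to 0.34 and Ifitm2 from -1.44 to 0.71. Without cells of 2 or more other-type UMIs the log2 ratios were -0.20 for Tppp3, -0.13 for Cdkn1c, 0.53 for Cldn5, 0.66 for Gsn, 0.16 for Bgn, 0.54 for Cyr61, 0.77 for Mgp and 0.72 for Ccl21a. Without cells of 10 or more they were -0.42 for Tppp3, 0.17 for Ramp2, 0.47 for Mfap4, 0.0088 for Gsn, 0.32 for Cyr61, 0.43 for Mgp and 0.17 for Ccl21a. Ccl21a was at 0.32 with at least 2 Areg UMIs, 0.086 with at least 3 Cd3 UMIs and 0.087 in cells with a Treg marker. Lyz1 was at -1.04 in the second lung matrix. The Penk log2 ratio ranged from -1.19 to 0.84. Over the alternatives the log2 ratio of Klrg1 ranged from 1.42 to 2.23, of Cd83 from 1.28 to 2.44, of Bhlhe40 from 1.14 to 2.23 and of Nfkbia from 0.91 to 1.51. The causes were not tested. Depth limits Foxp3, Penk, Il10 and Il1rl1, all under 50 CPM in both lung groups.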

Other observations

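At the finer resolution of 1.2, Areg was concentrated in 2 smaller groups of lung cells. Cluster 1 there, led by S100a8, Ccl5, Klrg1 and Nkg7, held 95 Areg-positive cells of 373 (25.5%, 21.1 to 30.2), and 11.4% (8.33 to 15.1) after thinning to 1000 UMIs. Cluster 10, led by Cd83, Dgat2, Rel and Bhlhe40, held 69 of 333 (20.7%, 16.5 to 25.5), and 13.2% (9.77 to 17.3) after thinning. The largest cluster, led by Hspa1a, held 23 of 1334 (1.72%) and 0.981% after thinning. Cluster 1 also had 64 cells with 10 or more other-type UMIs and the neutrophil genes S100a8 and S100a9 among its leading genes, and cluster 10 had 0 such cells. These clusters were built on the genes that lead them, so the values are a description.

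Single cells joined the genes unevenly. Of the 48 Areg-positive cells with a Klrg1 UMI, 16 (33.3%) also held Il1rl1, against 2.51% of the other Areg-positive cells, and 14 (29.2%) held Ccr7, against 67.2%. In matched Areg-zero cells Il1rl1 was in 5 of 35 Klrg1-positive cells (14.3%) and in 0.919% of the rest. Of the 282 Areg-positive cells with Ccr7, 70 (24.8%) held Cd83 against 18.8% of those without, and in Areg-zero cells the shares were 8.87% and 10.8%. Depth also joins genes in the same cells, and its part here was not tested.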
